A study of Arabidopsis thaliana with 24 samples.

Results

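The comparison of nlp6nlp7 with Col-0 after nitrate rested on 6 of the 24 Affymetrix ATH1 arrays of the study, 3 of each line, all hybridised with Arabidopsis thaliana root RNA. Col-0 is the reference accession, and nlp6nlp7 is a double mutant in the genes of the NIN-like transcription factors NLP6 and NLP7. Seedlings of both lines had grown for 9 days with 12.5 mM ammonium succinate as nitrogen source, and both received 25 mM KNO3 for 35 min at pH 5.5 before the roots were taken. A replicate was a pool of about 200 seedlings from 3 boxes, and p-values measure the spread between such pools. The alleles behind the mutants are not given in the sources used here. Every probe set other than the array controls was a member, 22714 of 22776. No group received potassium without nitrate, so potassium, handling and elapsed time cannot be told apart from nitrate in any response over time. RNA came from whole roots, so fewer cells of a type and less RNA per cell cannot be told apart either.

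Nitrate is both a nutrient and a signal for roots. Within minutes of its arrival, roots are known to raise genes for nitrate uptake, for its reduction to ammonium, and for the supply of reductant and carbon skeletons that assimilation draws on. NLP7 is held in the nucleus once nitrate is supplied and binds nitrate-responsive genes, and NLP6 is its close relative. Several genes that nitrate raises encode repressors of the GARP family, such as HHO1, which are known to hold down genes of nitrate starvation.

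The deposited values were intensities scaled to a common mean, and each was moved to log2 after adding 26. Differences are given on that scale as nlp6nlp7 minus Col-0, and fold values refer to intensity plus 26. A probe set passed the test when its adjusted p in limma was under 0.05 over all probe sets tested. The 6 arrays had median intensities from 171 to 182, and correlations between replicates of a line across probe sets ran from 0.988 to 0.991. Of the probe sets tested, 9224 (40.6%) have no single gene name in the annotation used here, and neither NLP6 nor NLP7 has a named probe set.

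After nitrate, 1412 probe sets passed the test, which is 6.22% of those tested, with 806 higher (3.55%) and 606 lower (2.67%) in nlp6nlp7. A run of neighbouring genes on chromosome 1, from AT1G20910 to AT1G27530, held 178 of the higher ones and is described apart. Among the 13146 named probe sets outside that stretch, 560 passed (4.26%), 272 of them higher (2.07%) and 288 lower (2.19%). They represent 557 genes. Most differences were small, with a median of 0.59 among the higher and -0.63 among the lower, and 262 of the 560 were under 1.5-fold. Beyond 2-fold the lower side held more, with 51 lower and 20 higher. The arrays of the lines did not overlap in any of the 272 higher probe sets and in 287 of the 288 lower ones. Passing the test on these same arrays all but requires this, so it adds no support. Of all probe sets outside the stretch, 12.7% and 9.62% lay apart in those directions. The balance depends on scaling: 48.6% of the 560 were higher as deposited, and 30.5% of 596 were higher after each array was centred on its median. For all probe sets the corresponding shares were 57.1% and 41.5%.

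Of the 14 named genes furthest below Col-0 outside the stretch, 11 were raised at least 2-fold by nitrate in nlp6, a class that holds 185 of the 13146 named probe sets there. The 14 were chosen by the size of the difference among genes that passed with the arrays of the lines apart, so their order and their lack of overlap with Col-0 come from that choice. AT5G01740, a gene of the nuclear transport factor 2 family, had intensities of 2034, 1240 and 2183 in Col-0 after nitrate and of 61, 113 and 93 in nlp6nlp7. Every double mutant array lay far below every Col-0 array. The gene was 15.9-fold lower in nlp6nlp7 (-3.99 ± 0.25 SE, n = 3 per line, limma adjusted p = 6.2e-09). Before nitrate its mean was 166 in Col-0 and 83.0 in nlp6nlp7, a difference that missed the threshold (-0.81, limma adjusted p = 0.056). From 0 to 35 min the log2 rise was 3.23 in Col-0 (limma adjusted p = 8.4e-09), and the change in nlp6nlp7 was 0.05 (0.96). Both single mutants lay between, with means of 1031 in nlp6 and 441 in nlp7.

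GLYK (AT1G80380) encodes glycerate kinase, which closes the photorespiratory cycle in leaves by making phosphoglycerate. Its intensities were 5964, 5319 and 6675 in Col-0 and 548, 782 and 746 in nlp6nlp7, with the highest double mutant array far below the lowest Col-0 array. It was 8.43-fold lower in the double mutant (-3.08 ± 0.20, limma adjusted p = 1.2e-08). The nlp6 mean was 6264, close to Col-0, and the nlp7 mean was 1365. GLYK was not lower before nitrate, when its mean was 154 in Col-0 and 254 in nlp6nlp7 (0.61, limma adjusted p = 0.083). Part of its rise remained in nlp6nlp7, at 1.37 (limma adjusted p = 0.00012) beside 5.06 in Col-0. Other genes of reductant and carbon supply had smaller deficits. PGM (AT1G78050), of the phosphoglycerate mutase family, had 11189, 11016 and 12410 in Col-0 and 6399, 7052 and 8002 in nlp6nlp7 (-0.69 ± 0.14, limma adjusted p = 0.0047). It still rose by 4.53 in the double mutant beside 5.2 in Col-0. Its mean was 6558 in nlp7 and 7151 in nlp6nlp7 (0.13 for nlp6nlp7 minus nlp7, limma adjusted p = 0.81). PGD1, a 6-phosphogluconate dehydrogenase of the NADPH-producing pentose phosphate pathway, had 20452, 22300 and 22697 in Col-0 and 16655, 16588 and 15950 in nlp6nlp7 (-0.41 ± 0.09, limma adjusted p = 0.0089). That call was lost under quantile normalization. PGD1 had a mean of 15395 in nlp7 and 16398 in nlp6nlp7 (0.09 for nlp6nlp7 minus nlp7, limma adjusted p = 0.77). Its relatives PGD3 (-0.35, limma adjusted p = 0.11) and PGD2 (-0.19, 0.10) did not pass. All 5 measured members of the list for reductant and carbon supply were below Col-0, and 3 passed as lower (beside 2.67% of all probe sets), with a list median of -0.41 beside 0.03 for all probe sets tested. The list, of which 5 of 10 genes were measured, was chosen with earlier results of these data known, so these counts are descriptions.

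Among the listed regulators of nitrate responses, HHO1 (AT3G25790) was the gene most below Col-0. Its intensities were 112, 163 and 177 in Col-0 and 32, 28 and 39 in nlp6nlp7. The difference was -1.57 ± 0.22 (limma adjusted p = 0.00011), and the nlp7 mean of 47.0 lay near the double mutant while the nlp6 mean of 154 lay near Col-0. HHO1 rose by 1.96 after nitrate in Col-0 and by 0.34 in nlp6nlp7 (limma adjusted p = 0.54). Its relative HHO2 (AT1G68670) had 1044, 1080 and 1021 in Col-0 and 934, 954 and 918 in nlp6nlp7. That difference of -0.16 did not pass (limma adjusted p = 0.35), and HHO2 rose by 2.05 in nlp6nlp7 beside 2.01 in Col-0. HHO3 (AT1G25550), also of this family, lies inside the chromosome 1 stretch. It had 2598, 2808 and 2521 in Col-0 and 3266, 3094 and 3218 in nlp6nlp7 (0.27 ± 0.10, limma adjusted p = 0.13), and its nlp7 mean was 1792. HHO3 passed as lower in nlp7 than in Col-0 (-0.55, limma adjusted p = 0.0062) and higher in nlp6nlp7 than in nlp7 (0.82, 2.6e-05). Before nitrate it was higher in nlp6nlp7 than in Col-0 (0.64, limma adjusted p = 0.00035). NRG2, which is known to act with NLP7 in nitrate signalling, differed by -0.05 (limma adjusted p = 0.92). HHO1 was thus the 1 of 4 measured regulators that passed, where 6.22% of all probe sets did.

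Of the 14 genes, 3 are annotated to carrier families. AT5G26200, of the mitochondrial carrier family, had 133, 153 and 203 in Col-0 and 6, 5 and 9 in nlp6nlp7. The double mutant stayed near the level seen before nitrate, when both lines had a mean of 3.67. The difference of -2.52 ± 0.14 (limma adjusted p = 2.7e-09) depends on the constant added, and was -4.10 with 3 and -1.27 with 103 in place of 26. AT5G52050, a carrier of the multidrug and toxic compound extrusion family known as DTX50, had 251, 418 and 250 in Col-0 and 53, 90 and 68 in nlp6nlp7 (-1.77 ± 0.25, limma adjusted p = 0.00012). A second gene of that family, AT1G66760, had 574, 692 and 364 in Col-0 and 115, 168 and 162 in nlp6nlp7 (-1.68 ± 0.37, limma adjusted p = 0.0076). The call for AT1G66760 was lost without Col-0 replicate 2, its highest array. For this gene the means of nlp6 and nlp7 were 278 and 280. The nlp6 arrays spread widely, from 122 to 545, beside 209 to 322 in nlp7.

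The remaining 8 genes carry varied annotations. AT2G48080, of the oxygenases that use 2-oxoglutarate and iron, had 6085, 5820 and 6603 in Col-0 and 1905, 1925 and 2186 in nlp6nlp7 (-1.61 ± 0.09, limma adjusted p = 2.7e-09). It was also lower before nitrate (-0.71, limma adjusted p = 5.4e-05), yet rose by 3.98 in the double mutant beside 4.87 in Col-0. AT1G73920, a lipase family gene, had 3184, 3497 and 3189 in Col-0 and 952, 950 and 937 in nlp6nlp7 (-1.77 ± 0.11, limma adjusted p = 6.2e-09). The replicates of this gene lay closer together than the lines by a wide margin. AT5G54170, annotated as a polyketide cyclase-like lipid transport protein, had 4540, 6120 and 4301 in Col-0 and 1535, 1774 and 1816 in nlp6nlp7 (-1.52 ± 0.18, limma adjusted p = 1.5e-05). AT5G53750, which encodes a CBS domain protein, had 807, 627 and 729 in Col-0 and 133, 84 and 98 in nlp6nlp7 (-2.52 ± 0.25, limma adjusted p = 1.9e-06). Its nlp7 mean of 114 lay close to the double mutant (-0.09 ± 0.25 for nlp6nlp7 minus nlp7, limma adjusted p = 0.94), and its nlp6 mean was 713.

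AT5G19970 had 1860, 2072 and 2249 in Col-0 and 555, 571 and 613 in nlp6nlp7 (-1.78 ± 0.16, limma adjusted p = 4e-07). AT5G03390 had 294, 335 and 237 in Col-0 and 68, 72 and 103 in nlp6nlp7 (-1.56 ± 0.16, limma adjusted p = 3.8e-06). Both were raised by nitrate in nlp6. AT4G33720, a gene of the family of the pathogenesis-related protein PR-1, had 5402, 10405 and 10073 in Col-0 and 3144, 1741 and 2292 in nlp6nlp7 (-1.82 ± 0.43, limma adjusted p = 0.013). It was as far below Col-0 before nitrate (-1.80, limma adjusted p = 0.015), and its call at 35 min was lost when nlp6nlp7 replicate 2 or Col-0 replicate 2 or 3 was left out. AT5G62360, annotated as an invertase and pectin methylesterase inhibitor, had 153, 333 and 102 in Col-0 and 31, 61 and 45 in nlp6nlp7 (-1.52 ± 0.39, limma adjusted p = 0.022). Its Col-0 arrays spread widely, and the call was lost under 5 of 17 alternatives. In all 14 genes the nlp7 mean lay between Col-0 and nlp6nlp7. The same held in 13 of the 14 named genes furthest above Col-0, which are described below. Both sets were chosen for a wide gap between Col-0 and nlp6nlp7. That choice favours an nlp7 mean inside the gap, so these counts are descriptions.

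**Figure D1:**
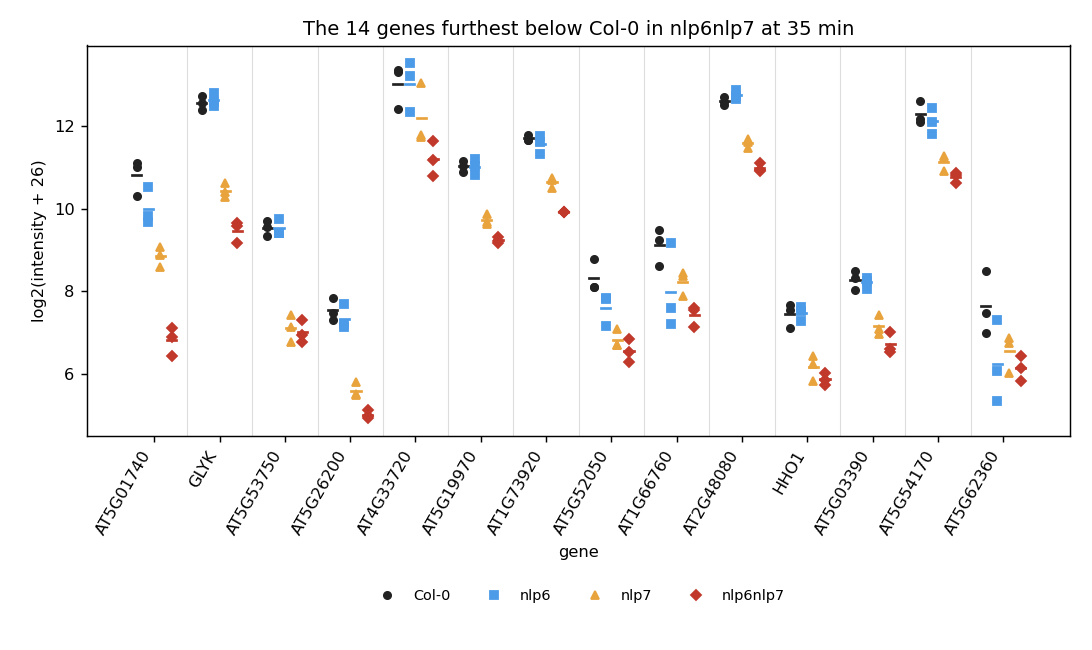
Intensities after nitrate, as log2(intensity + 26), of the 14 named genes furthest below Col-0 in nlp6nlp7 outside the chromosome 1 stretch, with 1 point per array and 4 lines as colours. Short bars are means of 3 arrays. All nlp6nlp7 points lie below all Col-0 points, as the rule that chose the genes required, and nlp6 mostly lies with Col-0. The nlp7 mean lies between Col-0 and nlp6nlp7 in each gene, a position that the same rule favours.

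The single mutants were set beside the double mutant on the same Col-0 arrays, which all 3 comparisons share. Against Col-0 after nitrate, 283 probe sets passed in nlp7 (1.25%), 85 higher (0.374%) and 198 lower (0.872%). In nlp6, 5 passed (0.022%), 3 higher (0.0132%) and 2 lower (0.00881%). The 14 genes with the deepest deficit were chosen on the nlp6nlp7 and Col-0 arrays after nitrate, 1 side of each comparison below, so counts among them describe these genes and are no test. Of the 14, 11 were lower in nlp7 than in Col-0. In nlp6, 0 passed in limma, and 4 were lower at an unadjusted p under 0.05. Tested against nlp7 directly, 5 of the 14 were lower still in nlp6nlp7. Outside the stretch 0.997% of probe sets were lower, a share that the choice of the 14 keeps from serving as their background. These were AT5G01740 (-2.03 ± 0.25, limma adjusted p = 2.6e-05), GLYK (-0.96, 0.007), AT1G73920 (-0.71, 0.00038), AT2G48080 (-0.60, 0.00039) and AT5G26200 (-0.58, 0.02). Replicate 1 of nlp7 after nitrate carries the second lowest weight of the 24 arrays (0.477). Without it, 4 of the 14 passed, and AT5G26200 did not (-0.48, limma adjusted p = 0.12). HHO1, AT5G53750, AT5G52050 and AT5G54170 differed from nlp7 by -0.29, -0.09, -0.27 and -0.38 and did not pass.

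Genes that respond to nitrate were defined on arrays that enter neither side of the comparison, those of nlp6 at 0 and 35 min, at 2-fold or more. Nitrate raised 381 probe sets in nlp6. After nitrate, 159 of the 381 were lower in nlp6nlp7 than in Col-0 (41.7%, beside 2.67% of all probe sets) and 11 were higher (2.89%, beside 3.55%). Their median difference was -0.43, with quartiles at -0.77 and -0.15, and 82.9% lay below 0. Before nitrate, the same 381 had a median of 0.03, with 37 lower (9.71%, beside 2.5% of all) and 32 higher (8.4%, beside 3.92%). At 0 min the class was thus centred near 0, and the test of the change in difference called 64 of the 381 lower (16.8%) beside 0.387% of all probe sets. In nlp7 and nlp6 against the same Col-0 arrays the medians of these 381 were -0.42 and 0.01. Against nlp7, the double mutant had a median of -0.02, with 33 lower (8.66%, beside 1.2% of all probe sets) and 30 higher (7.87%, beside 2.47%). Outside the chromosome 1 stretch, 74 of 185 named raised probe sets were lower than in Col-0 (40%, beside 2.19%) and 3 higher (1.62%, beside 2.07%). Against nlp7, 19 of these 185 were lower (10.3%, beside 0.997%) and 4 higher (2.16%, beside 1.06%), less even than the split over all 381. Before nitrate, 19 of the 185 were lower than in Col-0 (10.3%, beside 2.3%) and 9 higher (4.86%, beside 2.37%). Of the 51 named probe sets at least 2-fold lower outside the stretch, 29 belonged to the raised class (56.9%).

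For genes that nitrate lowers, the median difference was near 0. Nitrate lowered 206 probe sets in nlp6, of which 31 were higher (15%, beside 3.55% of all) and 8 lower (3.88%, beside 2.67%) in nlp6nlp7 after nitrate, with a median of 0.03. Before nitrate, 40 of the 206 were lower in nlp6nlp7 (19.4%, beside 2.5% of all) and 6 higher (2.91%, beside 3.92%), with a median of -0.25. The test of the change called 14 higher (6.80%, beside 0.141% of all probe sets) and 0 lower in limma, where 3 were lower at an unadjusted p under 0.05.

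**Figure D2:**
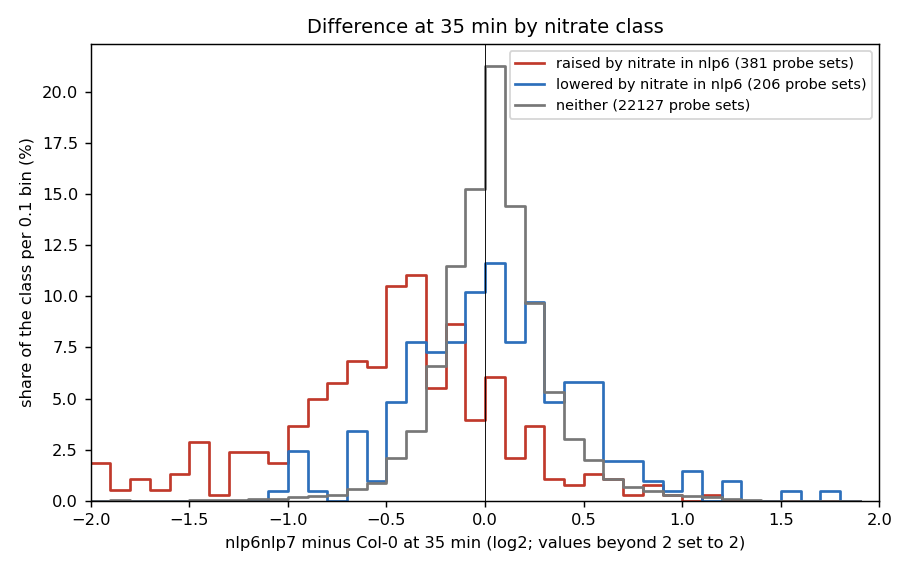
Distribution of the difference between nlp6nlp7 and Col-0 after nitrate (log2, horizontal axis) as the share of each class per bin of 0.1 (percent, vertical axis), for probe sets raised by nitrate in nlp6, lowered there, or neither. The raised class lies left of 0 with a median of -0.43, while the lowered class and the rest centre near 0.

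On the higher side, the 14 named genes furthest above Col-0, chosen in the same way, lay 2.11-fold to 3.96-fold above it, and 1 of the 14 belonged to the nitrate-raised class. AT5G61290, a flavin-containing monooxygenase gene, had 268, 330 and 209 in Col-0 and 1293, 1261 and 872 in nlp6nlp7. The lines were far apart (1.98 ± 0.36, n = 3 per line, limma adjusted p = 0.0014), as they were before nitrate, with means of 597 and 1861 (1.66, limma adjusted p = 0.0083). AT3G14200, a DnaJ chaperone family gene, and AT5G67430, an N-acetyltransferase family gene, are lowered by nitrate. The first had 7, 68 and 12 in Col-0 and 200, 100 and 144 in nlp6nlp7, and the second had 7, 10 and 14 against 71, 98 and 80. From 0 to 35 min AT3G14200 fell by 3.08 (log2) in Col-0, and its change of -0.73 in nlp6nlp7 did not pass (limma adjusted p = 0.18). AT5G67430 fell by 2.80 in Col-0, and its change of -0.87 in nlp6nlp7 did not pass either (limma adjusted p = 0.13). By the test of the change in difference, AT3G14200 passed (2.35, limma adjusted p = 0.0048) and AT5G67430 did not (1.93, 0.053). The differences of 1.79 ± 0.28 (limma adjusted p = 0.00032) and 1.58 ± 0.31 (0.0026) depend on the added constant, and became 2.72 and 2.71 with 3 and 0.94 and 0.71 with 103. The call for AT3G14200 was lost when only the 6 arrays were fitted.

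The 14 also included an expansin and a peptide gene, whose families held lower members as well. EXPB1, a beta-expansin that loosens cell walls, had 287, 191 and 219 in Col-0 and 659, 584 and 560 in nlp6nlp7 (1.29 ± 0.16, limma adjusted p = 1.5e-05). It was higher before nitrate too (0.85, limma adjusted p = 0.0019) and higher than in nlp7 (0.99, 0.00045). RALFL27, which encodes a peptide of the rapid alkalinization factor family, had 335, 281 and 368 in Col-0 and 771, 682 and 856 in nlp6nlp7 (1.17 ± 0.19, limma adjusted p = 0.0004). From 0 to 35 min it fell by 0.95 in Col-0 (limma adjusted p = 0.0016), and its change in nlp6nlp7 was -0.02. RALFL27 did not pass the test of the change in difference (0.92, limma adjusted p = 0.21). Its relatives RALFL31 (-0.77, limma adjusted p = 0.019) and RALFL33 (-0.47, 0.026), named after their values were seen, were lower than in Col-0. AT4G12500, of the lipid-transfer and protease-inhibitor family, had 38, 26 and 42 in Col-0 and 112, 115 and 97 in nlp6nlp7 (1.13 ± 0.18, limma adjusted p = 0.00033).

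The next 4 genes carry varied annotations. AT5G38780, a methyltransferase of the SABATH family, had 45, 25 and 33 in Col-0 and 159, 133 and 97 in nlp6nlp7 (1.36 ± 0.22, limma adjusted p = 0.00034). AT3G03270, a universal stress protein gene, had 413, 511 and 508 in Col-0 and 912, 1298 and 1184 in nlp6nlp7 (1.19 ± 0.14, limma adjusted p = 1.3e-05). It was the 1 gene of these 14 that also passed in the single mutants, at 0.78 in nlp7 and 0.91 in nlp6 (limma adjusted p = 0.0067 and 0.028). AT5G43590, a patatin-like lipid hydrolase gene, had 39, 48 and 39 in Col-0 and 130, 156 and 78 in nlp6nlp7 (1.08 ± 0.19, limma adjusted p = 0.00094). AT1G66860, a class I glutamine amidotransferase-like gene, had 108, 157 and 101 in Col-0 and 413, 493 and 236 in nlp6nlp7 (1.42 ± 0.37, limma adjusted p = 0.024). Before nitrate its means were 41.3 and 352 (2.45, limma adjusted p = 0.00027), and its call at 35 min was lost under 6 of 17 alternatives.

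The remaining genes of the 14 were AT4G35720 (1.22), AT5G40630, a ubiquitin-like gene (1.17), AT5G57785 (1.15) and AT3G21000 (1.11). AT5G40630 had means of 317 in Col-0 and 312 in nlp6nlp7 before nitrate, and 141, 199 and 276 against 438, 580 and 432 after it. Its change in difference between the times did not pass (1.18, limma adjusted p = 0.21). AT5G57785, the 1 nitrate-raised gene among the 14, had 72, 81 and 104 in Col-0 and 265, 192 and 209 in nlp6nlp7 (limma adjusted p = 0.011). Its call was lost without replicate 1 of nlp6nlp7 or of Col-0. Against nlp7, 6 of the 14 were higher in nlp6nlp7, and 4 without nlp7 replicate 1. Outside the stretch 1.06% of probe sets were higher, but the 14 were chosen on the same nlp6nlp7 arrays, so the count is a description.

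**Figure D3:**
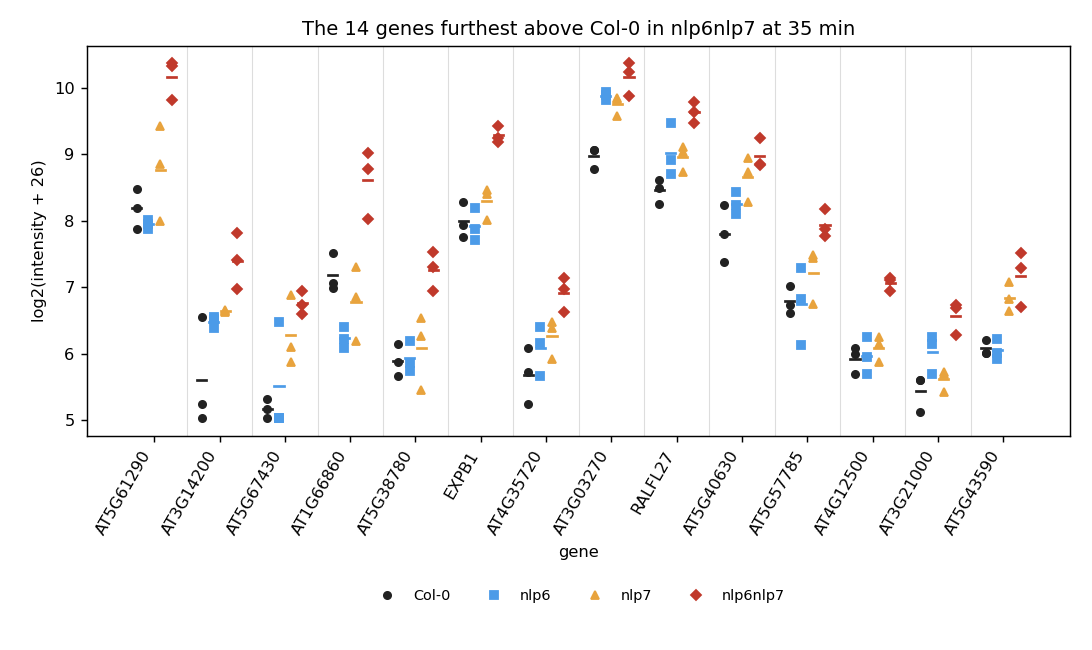
Intensities after nitrate, as log2(intensity + 26), of the 14 named genes furthest above Col-0 in nlp6nlp7 outside the chromosome 1 stretch, with 1 point per array and 4 lines as colours. Short bars are means of 3 arrays. All nlp6nlp7 points lie above all Col-0 points, as the rule that chose the genes required. The nlp6 mean mostly lies nearer to Col-0, while the nlp7 mean lies nearer to nlp6nlp7 in several genes, such as AT5G67430 and AT5G40630.

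Set beside the comparison before nitrate, which shares no array with it, the difference after nitrate was present in part. At 0 min, 1457 probe sets passed (6.41%). Outside the stretch, 87 of the 272 higher probe sets were also higher at 0 min, which is 32.0% of the 272 and 27.9% of the 312 called there (2.37%). Among the lower ones, 78 of the 288 were shared, 27.1% of the 288 and 25.8% of the 302 called at 0 min (2.3%). The median difference of the 272 was 0.59 after and 0.33 before nitrate, and that of the 288 was -0.63 after and -0.23 before. The difference itself changed between the times in 120 probe sets (0.528%), with 32 changing upward (0.141%) and 88 downward (0.387%). Of the 288 lower probe sets, 40 were among those that changed downward, and of the 272 higher ones, 10 changed upward. This test contains the difference at 35 min by which those probe sets were selected, so the counts are descriptions. Of the 14 deepest deficits, 10 changed downward, led by GLYK (-3.68, limma adjusted p = 5.3e-07), AT5G01740 (-3.18, 5.3e-05) and AT5G26200 (-2.52, 5.3e-07). Of the 14 highest, 1 changed, AT3G14200 (2.35, limma adjusted p = 0.0048), and 8 had already been higher before nitrate.

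**Figure D4:**
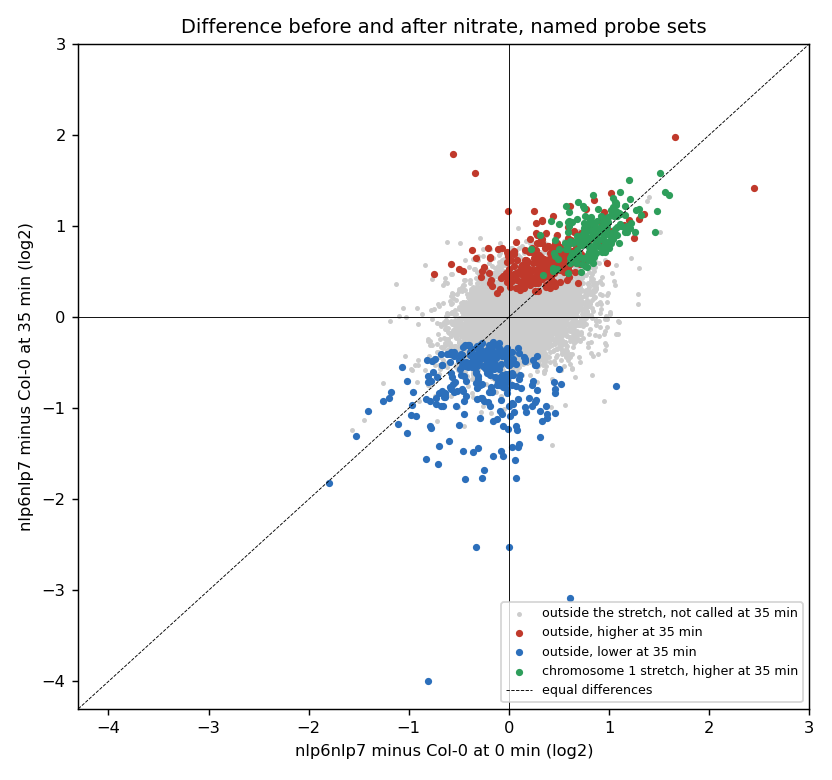
Difference between nlp6nlp7 and Col-0 at 0 min (horizontal, log2) against that at 35 min (vertical, log2), 1 point per named probe set, coloured by region and by the call at 35 min. Points of the chromosome 1 stretch lie along the line of equal differences, while many lower calls outside it lie near 0 before nitrate and well below 0 after it.

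Gene groups listed for nitrate responses and root functions had few measured members, 33 of 129, because many well-known genes have no named probe set here. They were chosen with earlier results of these data known, so their counts are descriptions. The list of CC-type glutaredoxins, small redox proteins that nitrate is known to raise, had 9 measured members, of which 2 were lower and 0 higher in limma (0 higher also at an unadjusted p under 0.05), with a median of -0.33. Of all probe sets, 2.67% were lower and 3.55% higher. GRXS4 had 1148, 765 and 1156 in Col-0 and 489, 304 and 621 in nlp6nlp7 (-1.11 ± 0.30, limma adjusted p = 0.028). GRXS3 had 197, 112 and 188 in Col-0 and 73, 67 and 87 in nlp6nlp7 (-0.89 ± 0.23, limma adjusted p = 0.02). The lines did not overlap in either gene, and the calls were lost under 5 and 6 of 17 alternatives. GRXS8 (-0.97, limma adjusted p = 0.061) missed the threshold and passed it under 6 alternatives. GRXS1, GRXS5, GRXS6 and GRXS2 had -0.76, -0.33, -0.31 and -0.25, and CEPD1 and CEPD2, known as shoot-derived signals of nitrogen demand, had 0.04 and 0.30. These paralogs may share probes, so how the signal divides among them is uncertain.

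Of the 15 members of the other lists, 0 passed in limma. An unadjusted p under 0.05 was found for 2 of them, beside 3926 of all 22714 probe sets tested. The high-affinity nitrate transporter gene NRT2.5, which is typical of nitrogen starvation, had 106, 84 and 89 in Col-0 and 109, 69 and 55 in nlp6nlp7, with overlap (-0.23, limma adjusted p = 0.71). The cytokinin response regulators ARR15 and ARR16 had 0.17 and 0.11, the low-oxygen regulator HRA1 had 0.02, and the iron deficiency genes BHLH101, PYE and SUFE2 had -0.34, -0.09 and -0.05. The stress regulators WRKY53 and ZAT10 had -0.32 and 0.16. EXPA7, an expansin of root hairs and the 1 root marker measured, had 495 to 585 in Col-0 and 503 to 528 in nlp6nlp7. Of the shoot markers, the antenna protein gene LHCB4.1 had 192, 141 and 137 in Col-0 and 54, 60 and 113 in nlp6nlp7 (-0.88, limma adjusted p = 0.087), while RCA and PRK, of the Calvin cycle, had -0.05 and 0.26. Both reference genes were near 0, UBC21 at -0.12 and SAND at -0.02.

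Counts in gene families stand beside 6.22% of all probe sets that passed, 3.55% higher and 2.67% lower, and no family was tested as a group. Of 18 cell wall expansins, 2 were higher and 2 lower. EXPB1 and EXPA18 (0.78, limma adjusted p = 0.0048) were higher, and EXLA3 (-1.20, 0.0014) and EXLB1 (-0.48, 0.027) were lower. EXLA3 had 295, 432 and 262 in Col-0 and 120, 129 and 128 in nlp6nlp7. XTH21, a xyloglucan-modifying enzyme, was higher (0.83, limma adjusted p = 0.011), 1 of 9 measured. Of 47 UDP-glycosyltransferase probe sets, 4 were lower and 3 higher, of which UGT85A2 (0.94) and UGT74B1 (0.67) lie in the chromosome 1 stretch. UGT78D1, a flavonol rhamnosyltransferase, had 150, 223 and 142 in Col-0 and 59, 37 and 90 in nlp6nlp7 (-1.19 ± 0.21, limma adjusted p = 0.00095). UGT73D1 (-1.06, limma adjusted p = 0.0026) and UGT72E1, which acts on lignin precursors (-0.92, 0.001), were also lower, as was UGT71C5 (-0.43, 0.029). UGT72E2 was higher (0.53, limma adjusted p = 0.028). SWEET11, a sucrose exporter, was the 1 of 14 SWEET genes that passed, with 1131, 797 and 961 in Col-0 and 1776, 2057 and 1785 in nlp6nlp7 (0.95 ± 0.20, limma adjusted p = 0.0058).

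The counts of the next families stand beside the same 6.22% of all probe sets. The serine carboxypeptidase-like genes scpl40 (0.58) and SCPL34 (0.54) were higher, 2 of 29, and CYP71B26 (0.45) was the 1 of 23 cytochrome P450 genes that passed. Of the trichome birefringence-like genes, a family known for acetylating wall polysaccharides, values were higher for TBL19 (0.64) and TBL39 (0.42) and lower for TBL16 (-0.48) and TBL45 (-0.41), of 22 measured. The tau glutathione transferases GSTU20 (0.52) and GSTU27 (0.38) were higher, 2 of 11. Of 15 tetraspanin and 20 beta-glucosidase probe sets, 0 passed in limma. An unadjusted p under 0.05 was found for 4 and 3 of them, beside 3926 of all 22714 tested. Of these family members, UGT72E2, UGT71C5, CYP71B26, GSTU27, EXLB1, TBL39, TBL45, SCPL34 and scpl40 lost their calls under 3 to 8 of 17 alternatives. UGT78D1 lost its call when the 6 arrays were fitted alone, XTH21 without Col-0 replicate 2 and TBL19 without nlp6nlp7 replicate 1.

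The chromosome 1 stretch from AT1G20910 to AT1G27530 was higher in nlp6nlp7 almost throughout. It was chosen with earlier results of these arrays known, so its values are given as a description. It holds 316 named probe sets for 310 genes, of 620 protein-coding genes that the reference lists there. After nitrate, 178 of the 316 passed as higher (56.3%) and 0 as lower in limma, where 1 was lower at an unadjusted p under 0.05. In all, 285 lay above 0. The median difference was 0.70, which is 1.62-fold, with quartiles at 0.25 and 0.94. Among the 157 whose brightness was at or above the median of all probe sets, the median was 0.88 (1.84-fold) and all 157 lay above 0. The 159 dimmer ones had a median of 0.28. The remaining 3150 named probe sets of chromosome 1 had a median of 0.04, with 65 higher and 73 lower.

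The bounds were set with earlier results of these arrays known, so a step at each edge comes partly from that choice. AT1G20890, the last measured gene before the stretch, differed by -0.01, and AT1G20910, the first in it, by 0.92 (limma adjusted p = 0.019). The next gene within, AT1G20940, differed by 0.25 and did not pass (limma adjusted p = 0.62). At the far end AT1G27530 differed by 0.84 and AT1G27550 beyond it by -0.09. Next to them, AT1G27480 within differed by 0.09 and AT1G27570 beyond by 0.36. Neither passed (limma adjusted p = 0.92 and 0.63). The 20 measured probe sets before the stretch had a median of 0.07 and the 20 after it -0.00. On either side 0 were called in limma, and 5 before and 1 after had an unadjusted p under 0.05. That threshold was met by 1910 of the 13146 named probe sets outside the stretch. The first and last 20 within had medians of 0.58 and 0.77. Each double mutant array showed the shift alike, with medians of 0.71, 0.72 and 0.69 against the Col-0 mean after nitrate and 0.69, 0.72 and 0.70 before it. It was there before nitrate as well, with 168 of the 178 also called at 0 min, which is 94.4% of the 178 and 88.9% of the 189 called at 0 min (59.8% of the stretch). The single mutants had medians of 0.06 (nlp7) and 0.02 (nlp6) against Col-0, and the double mutant lay above nlp7 by 0.65 and above nlp6 by 0.70. The origin of the shift was not tested.

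**Figure D5:**
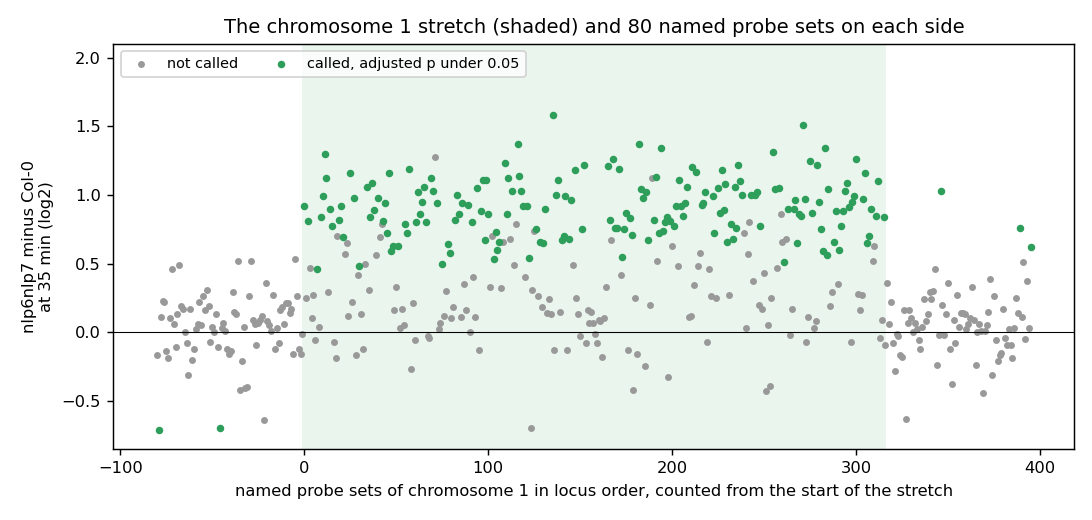
Difference between nlp6nlp7 and Col-0 after nitrate (log2, vertical) for named probe sets of chromosome 1 in locus order (horizontal), in the stretch (shaded) and on each side of it, with called probe sets in green. The median is 0.70 inside and near 0 on both sides.

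Genes in the stretch with the largest differences included LPR1 (AT1G23010), a multicopper oxidase with a known role in the root response to phosphate. It had 105, 92 and 65 in Col-0 and 285, 263 and 246 in nlp6nlp7 (1.37 ± 0.12, limma adjusted p = 4e-07), and 1.11 before nitrate. AT1G23280 had 262, 304 and 250 in Col-0 and 940, 875 and 780 in nlp6nlp7 (1.58). AT1G26680 had 4, 17 and 13 against 86, 65 and 89 (1.51). AT1G24030, AT1G26920 and AT1G24320 followed, at 1.37, 1.34 and 1.34. Further genes with a symbol that passed in the stretch are named here after their values were seen, except UGT74B1, a member of a listed family. The clock gene GI, whose protein also acts in flowering, and UGT74B1, of glucosinolate synthesis, both differed by 0.67. The cytochrome c gene CYTC-1 differed by 0.53. All 3 lay below the stretch median of 0.70. The xylan synthesis gene GUT2 differed by 1.10.

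The direct comparison of nlp6nlp7 with nlp7 after nitrate called 835 probe sets (3.68%), 562 higher (2.47%) and 273 lower (1.2%). Outside the stretch 271 passed (2.06%), 140 higher and 131 lower, which fell to 143 without replicate 1 of nlp7. The lowest against nlp7, beside AT5G01740, was the chitinase gene CHI (AT2G43570), with 577, 428 and 562 in nlp6nlp7 and 6002, 1571 and 1090 in nlp7. Its difference of -2.02 (limma adjusted p = 0.027) became -1.30 (0.17) without nlp7 replicate 1. AT3G55790 likewise had 66, 83 and 55 in nlp6nlp7 and 583, 173 and 177 in nlp7, and its difference of -1.64 (limma adjusted p = 0.03) became -1.11 (0.19). AT2G37870 kept its call, with 219, 188 and 137 in nlp6nlp7 against 1151, 802 and 538 in nlp7 (-2.0, limma adjusted p = 0.00026, and -1.74, 0.0029, without that array). Its Col-0 arrays had 249, 304 and 308, and nlp7 was above Col-0 (1.39, limma adjusted p = 0.022). Against Col-0, nlp6nlp7 did not pass for CHI (-1.13, limma adjusted p = 0.25), AT3G55790 (-1.24, 0.09) or AT2G37870 (-0.61, 0.31). On the higher side, AT1G66860 (1.83), AT1G59171 (1.34) and AT5G38780 (1.17) kept their calls without nlp7 replicate 1. AT5G61290 (1.41) did not (1.02, limma adjusted p = 0.20).

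Among probe sets without a gene name, 261945_at and 254195_at had the largest deficits and were singled out with earlier results known. The first had 271, 257 and 297 in Col-0 and 3, 2 and 1 in nlp6nlp7 after nitrate, with means of 39.0 in nlp6 and 343 in nlp7 (-3.42 ± 0.23, limma adjusted p = 2e-08). The second had 425, 386 and 329 in Col-0 and 38, 10 and 21 in nlp6nlp7, with means of 367 in nlp6 and 21.3 in nlp7 (-3.08 ± 0.22, limma adjusted p = 2.7e-08). The first was thus low in both lines that carry the nlp6 mutation, and the second in both that carry the nlp7 mutation. The annotation used here gives no gene for either.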

How the data were processed

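The authors deposited 1 intensity per probe set and array on a linear scale, as whole numbers from 1 to 36178, per the file's values. Arrays had been scaled to 1 level: their means, trimmed by 2% on both sides, ran from 500.11 to 500.5. The summarising software is not stated in any source used here. Values became log2(intensity + 26), 26 being the 20th percentile, with no filter. All 24 arrays, in 8 groups, were fitted together by limma 3.58.1 (R 4.3.3), which left 16 residual degrees of freedom. P-values are two-sided, Benjamini-Hochberg adjusted over 22714 probe sets. Gene names came from the platform annotation and the RefSeq table of TAIR10.1. The array files name no build, so no coordinates are given. Of the probe sets, 13490 match 1 gene, 503 several and 8721 none.

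Named genes outside the stretch were the 14 highest and 14 lowest that passed with the arrays of the lines apart, with 6 in the stretch, the 4 highest and 4 lowest against nlp7, all measured list members and family members that passed. The comparison, stretch, lists and rule were chosen with earlier results of these data known. Alternatives changed the scaling, filter, added constant (3 or 103), variance model, arrays fitted, weights, replicate block and probe sets per gene, or left out single arrays. The fitting was tested on simulated data. Precision is limited by the number of arrays.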

Additional observations from a re-analysis of the deposited data

Results flagged for a closer look

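The difference between nlp6nlp7 and Col-0 was not the same at 35 min as at 0 min for 12 named genes, by the limma test of that change. In 11 of them the double mutant lay further down after nitrate. These genes were named largely for their difference at 35 min, which that test contains, so the counts are descriptions. Of all probe sets, 0.387% changed downward and 0.141% upward. The change was -3.68 on the log2 scale for GLYK, -3.18 for AT5G01740, -2.52 for AT5G26200 and -2.19 for AT5G53750. It was -1.84 for AT5G52050, -1.62 for HHO1, -1.5 for AT1G73920, -1.46 for AT5G54170, -1.34 for AT5G19970, -0.90 for AT2G48080 and -0.64 for TBL16. AT3G14200 was the 1 that moved the other way, by 2.35. No group of arrays was large enough for the test of a single array far from the rest.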

How the results depend on the processing

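The number of arrays limits every count here, and the probe sets without a gene name cannot be placed inside or outside the chromosome 1 stretch. With array weights the counts rose to 2251 after nitrate, 991 of them outside the stretch, 278 for the change between times, 1275 against nlp7 and 2968 at 0 min. With 1 probe set per named gene, and so fewer probe sets tested, they were 685, 49, 415 and 730 for all but the count outside the stretch, and 71 nitrate-raised probe sets were lower. Fitting only the arrays compared left 386 calls against nlp7. Without 1 array the ranges were 907 to 1148 after nitrate, 318 to 421 outside the stretch, 70 to 114 for the change between times, 556 to 731 against nlp7, 804 to 1014 at 0 min and 129 to 174 for nitrate-raised probe sets. The count after nitrate moved by over 1.5 times without nlp6nlp7 replicate 1 (907) or Col-0 replicate 2 (913). Outside the stretch it did so without nlp6nlp7 replicate 1 (327) or 2 (344) or Col-0 replicate 1 (367) or 2 (318). The change between times did so without Col-0 replicate 2 at 35 min (75) or nlp6nlp7 replicate 2 at 0 min (70), and the count against nlp7 without nlp6nlp7 replicate 2 (556). The higher share at 0 min was 61.1% as deposited and 34.2% with arrays centred on their medians. Between Col-0 and nlp6nlp7 at 35 min, deviations of same-numbered arrays correlated at -0.017, -0.069 and 0.005. Pairing by replicate number was not checked for other groups or across the times. A replicate block gave 1458 calls, 583 of them outside the stretch. It gave 129 for the change between times, 894 against nlp7 and 1511 at 0 min, each above the count as reported. Of 62 named genes that passed, 40 kept their call in all 17 alternatives, as did 22 of the 28 strongest outside the stretch. None of the 62 changed sign. Signs turned for 9 genes near 0 that never passed. With 1 array left out, values ran from -0.12 to 0.08 for NRG2, -0.46 to 0.04 for GRXS2, -0.11 to 0.14 for CEPD1, -0.01 to 0.26 for ARR15, -0.01 to 0.08 for HRA1, -0.18 to 0.00 for PYE, -0.17 to 0.02 for SUFE2, -0.09 to 0.03 for RCA and -0.12 to 0.07 for SAND. Under quantile normalization CEPD1 gave -0.02 and HRA1 -0.07, and under centring -0.02 and -0.04. The cause was not tested. With 103 added in place of 26, differences shrank by over 1.5 times for HHO1 (-0.89), AT5G62360 (-0.94), AT5G38780 (0.75), AT4G35720, AT4G12500 and AT5G43590 (0.61 each), AT3G21000 (0.51), AT1G26680 (0.68), GRXS3 (-0.57), UGT78D1 (-0.74), TBL19 (0.42), 261945_at (-1.85) and 254195_at (-1.94). With 3 added they grew for AT3G21000 (1.83), AT1G26680 (2.65) and 261945_at (-5.81).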

Other observations

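Genes with a symbol among those that passed outside the chromosome 1 stretch, 37 lower and 35 higher, are described here after their values were seen. Among the lower were the transcription factor genes bZIP58 (-1.47, limma adjusted p = 9e-06), SMZ, an AP2-like repressor of flowering (-1.14), TAC1 (-0.92), BZIP24 (-0.61) and BZIP53 (-0.36). Also lower were SFP1, of the sugar-porter family (-1.36), the glucosinolate importer GTR1 (-0.91) and the manganese carrier MTP11 (-0.51). NANA, an aspartic protease gene, had means of 4153 in Col-0 and 1583 in nlp6nlp7 (-1.39 ± 0.26). PSY1R, a receptor kinase of the PSY1 peptide, was lower (-0.63), as were the peptide genes RALFL31 (-0.77) and RALFL33 (-0.47), the lignin enzyme gene CCR2 (-0.94) and QQS, which is known for its effect on starch and protein (-0.65).

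Higher were GH3.17, which conjugates auxin to glutamate, with means of 1145 in Col-0 and 2377 in nlp6nlp7 (1.03 ± 0.12, limma adjusted p = 1.2e-05), the defensin-like genes PDF2.1 (1.06) and PDF2.5 (0.48), and TIL, a lipocalin gene induced by temperature (0.90). TRY, a repressor of trichome fate, had means of 19.0 in Col-0 and 47.3 in nlp6nlp7 (0.72), the glutathione transferase gene ATGSTF13 was higher (0.90), and so were BZIP61 (0.62) and SPT (0.32).

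Genes of the mitochondrial genome were also looked up after values were seen. Of 21 probe sets for 14 such genes, 4 were lower and 0 higher in limma after nitrate (0 higher also at an unadjusted p under 0.05), with a median of -0.34 and 17 below 0. Of all probe sets, 2.67% were lower. The 4 lower were probe sets of ccb452 (-1.04), nad1 (-0.91), nad9 (-0.82) and nad5 (-0.67). Probe sets of the same gene differed: the others of nad1 ran from -0.67 to 0.39, and the other of nad5 (-0.50) did not pass. Some were dim, such as matR with means of 3.33 in Col-0 and 4.33 in nlp6nlp7. Before nitrate 3 of the 21 were lower (beside 2.5% of all probe sets), with a median of -0.08. In nlp7 and nlp6 the medians were -0.05 and -0.07, with 0 called in limma and 1 and 0 at an unadjusted p under 0.05.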
